A study of Homo sapiens with 6 samples.

Results

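The B7 proteins, the nectins and a few further surface proteins act as immune checkpoint ligands, and 10 of their genes were followed here in H1975, a human non-small cell lung cancer (NSCLC) cell line with an activating and a resistance mutation in EGFR. The genes were VTCN1, CD274, PDCD1LG2, CD276, ICOSLG and HHLA2 of the B7 family, the nectin family members PVR and NECTIN2, and CD47 and LGALS9. They were found by symbol and are 10 of the 27216 rows of the expression table. The set was selected on the measured difference between the same parental and adapted samples, in which VTCN1 is among the largest rises, so the members' own differences are given as descriptions with no p-value. Parental cells had received osimertinib (Osi), an EGFR tyrosine kinase inhibitor, for 0 h and adapted cells for 72 h, at a labelled dose of 1000 nM, with 3 RNA-seq samples in each group. All 6 samples were of the same cell line, labelled wild type and grown, per the labels, in DMEM with 10% FBS, while the study's general methods name another medium. No immune cells were added. Dead cells were rinsed off before extraction, so the adapted samples hold only cells that were still attached. The table's columns name the parental samples DMSO, the solvent of the drug, and whether and for how long those cells were kept in it was not stated. The drug and the time in culture therefore cannot be told apart here. The study's statistics section speaks of independent experiments in general, and whether these 6 samples were separate cultures was not given in the labels, so p-values measure only the spread between these samples, which may be technical.

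Checkpoint ligands sit on the surface of tumor cells or antigen-presenting cells and bind receptors on T cells, natural killer cells or macrophages. Most of the ligands followed here dampen the response of the cell that carries the receptor, while ICOSLG stimulates T cells, and HHLA2, PVR and NECTIN2 have both activating and inhibitory receptors. In lung cancer the best known is CD274 (PD-L1), the target of antibodies in clinical use. PD-L1 transcription is classically driven by interferon-gamma through JAK kinases and IRF1.

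The stretches upstream of 3 genes are shown because VTCN1 had the largest difference of the set and CD274 and HHLA2 were the members that were lower in adapted cells without overlap between the groups. Each is the 210 bases from 250 to 41 bases before a RefSeq transcript start on GRCh38.p14, read 5′ to 3′ on the gene's own strand. Capitals mark matches to 6 searched motifs. VTCN1 lies on the minus strand at chr1:117210968-117211177, CD274 on the plus strand at chr9:5450292-5450501, and HHLA2 on the plus strand at chr3:108296298-108296507, the first of its 3 starts.
VTCN1: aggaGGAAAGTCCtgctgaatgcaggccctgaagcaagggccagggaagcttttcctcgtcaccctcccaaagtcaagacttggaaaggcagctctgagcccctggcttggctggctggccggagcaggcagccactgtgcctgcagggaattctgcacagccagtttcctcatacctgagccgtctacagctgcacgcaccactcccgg
CD274: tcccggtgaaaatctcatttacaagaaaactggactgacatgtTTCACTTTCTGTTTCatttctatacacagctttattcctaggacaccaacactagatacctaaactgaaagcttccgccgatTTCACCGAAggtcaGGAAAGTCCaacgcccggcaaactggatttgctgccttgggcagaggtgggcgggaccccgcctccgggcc
HHLA2: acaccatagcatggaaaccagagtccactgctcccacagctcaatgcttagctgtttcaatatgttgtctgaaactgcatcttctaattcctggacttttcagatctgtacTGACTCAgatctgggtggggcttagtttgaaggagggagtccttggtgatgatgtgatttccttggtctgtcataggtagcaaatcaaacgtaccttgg

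The motifs were searched on both strands in 35116 such windows of all genes. The NF-kB letters GGANNTTCC, found in 3.1% of all windows, matched on the other strand as the same run, GGAAAGTCC, in VTCN1 and in CD274. That run began 246 bases before the VTCN1 start and 111 bases before the CD274 start. CD274 also held the GAS letters TTCNNNGAA (5.73% of all windows) as TTCACCGAA, and the ISRE letters GAAANNGAA (5.79%) on the other strand as TTCACTTTC and TTCTGTTTC, which overlap. GAS and ISRE elements are the binding sites of STAT and IRF factors in interferon-responsive genes. The HHLA2 window shown held the AP-1 letters TGANTCA (5.64%) as TGACTCA, 139 bases before its start. The windows at the other HHLA2 starts held no match, and which start these cells use was not tested. Among the other members only PVR had a match, the TEAD letters GGAATG (10.2%) at 182 bases before its start, and the E-box CACGTG (5.04%) was in no member's window. Windows were found for 9 of the 10 genes, 12 windows in all, and PDCD1LG2 had none. In a grouping by CG pairs that was not set in advance, the windows of VTCN1, CD274, HHLA2 and LGALS9 held 0 to 9. Those of CD276, ICOSLG, PVR, NECTIN2 and CD47 held 16 to 30. The windows of LGALS9, CD47 and CD276 lie wholly within these genes as annotated in GENCODE v29, as do those at the other HHLA2 starts. They are therefore not upstream of the annotated gene, and the start in use was not tested for any member. A match is a run of letters and does not show that a factor binds there.

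Expression was deposited as log2(x + 1), with x taken as FPKM, fragment counts scaled by transcript length and library size. That unit was inferred from the size of the values, and every comparison of levels between genes below rests on it. The labels also describe an RNase R digestion, and its effect on levels between genes was not tested. The summed FPKM lay between 375342 and 387753 in the 6 samples. The table holds no counts, so the depth behind a value is unknown. Of 14 immune cell markers none was expressed highly enough to be tested, 4 were listed at 0 in all samples, and their summed FPKM was 2.44 to 2.52 in parental and 0.758 to 1.25 in adapted samples. The 6 epithelial markers were all tested, with a summed FPKM of 3710 to 3742 and 3491 to 3788, and 1 of them rose and 3 fell. Of 8 fibroblast markers only COL1A1 could be tested, which rose, and the list's summed FPKM was 3.04 to 3.28 in parental and 8.65 to 9.41 in adapted samples. LUM and COL3A1, too low to test, were also higher in every adapted sample. The 4 endothelial markers were all below the level for testing, with a summed FPKM of 1.13 to 1.88 and 1.49 to 3.50. The part of these markers in the differences below was not tested.

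VTCN1, which encodes the T cell inhibitory ligand B7-H4, was a low transcript in parental cells and the highest of the 10 in adapted cells. Its FPKM was 2.30, 2.17 and 2.08 in parental samples 1 to 3 and 62.7, 109.6 and 107 in adapted samples 1 to 3. Every adapted sample was far above every parental one, and adapted sample 1 was the lowest of its group. The mean went from 2.18 ± 0.11 to 93.1 ± 26.4 FPKM (SD, n = 3 each), a ratio of 42.7. On the log2(FPKM + 1) scale the means were 1.67 ± 0.05 and 6.51 ± 0.45, a difference of 4.84 (SE 0.20), which the added 1 compresses for so low a parental level. Without adapted sample 1 the ratio was 49.7 and the log2 difference 5.10. VTCN1 had the 3rd largest rise of the 12656 rows with a mean log2 value of at least 1. In bulk RNA a change in the share of cells that carry a transcript cannot be told apart from a change in the RNA per cell.

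**Figure D1:**
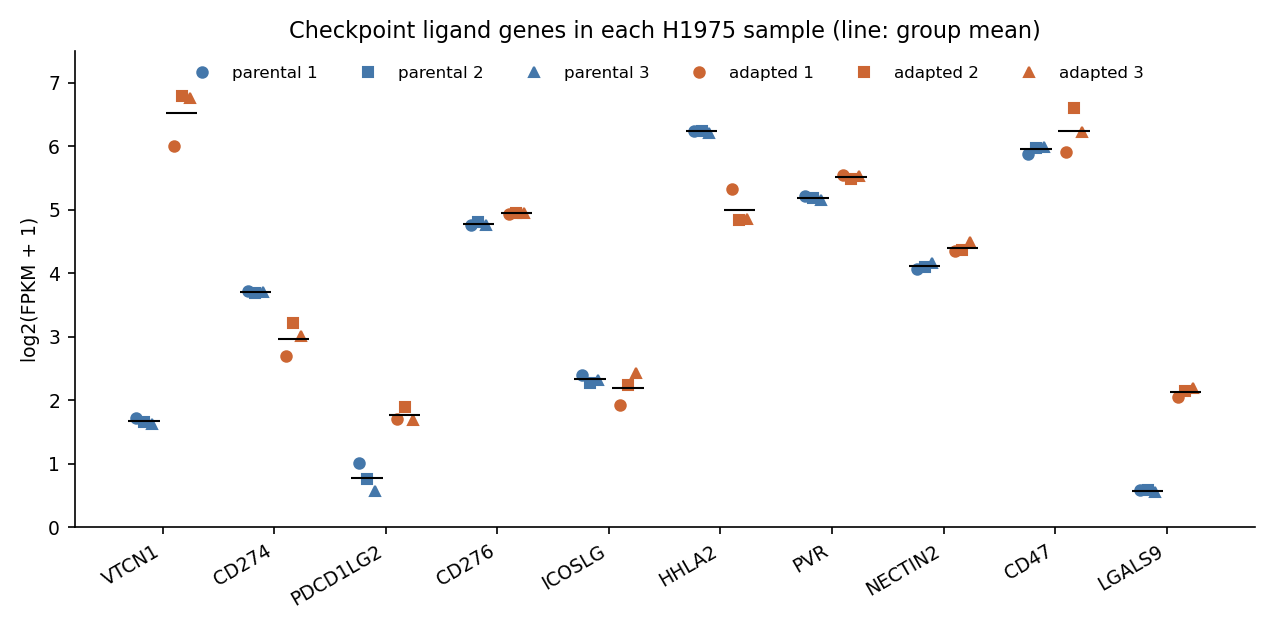
Level of each of the 10 ligand genes in every sample, as log2(FPKM + 1), with 3 parental (blue) and 3 adapted (orange) samples and a line at each group mean. VTCN1 moved from a mean of 1.67 to 6.51, LGALS9 from 0.57 to 2.12 and CD274 from 3.70 to 2.97, while the groups overlapped for ICOSLG and CD47.

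The ligands of PD-1, the inhibitory T cell receptor, differed in opposite directions. CD274 (PD-L1) had an FPKM of 12.1, 11.9 and 11.9 in parental samples and 5.44, 8.25 and 7.01 in adapted samples. All adapted samples were below all parental ones, and sample 1 was again the lowest. The mean was 11.97 ± 0.127 FPKM in parental and 6.90 ± 1.41 FPKM in adapted cells, 1.74-fold lower in the latter. The log2 difference was -0.73 (SE 0.13). PDCD1LG2 (PD-L2) was at 1.02, 0.689 and 0.481 FPKM in parental samples and at 2.24, 2.72 and 2.23 FPKM in adapted samples. The groups did not overlap, and the mean was 3.28-fold higher in adapted cells, at 2.39 ± 0.281 against 0.730 ± 0.271 FPKM (log2 difference 0.98, SE 0.13). CD274 thus exceeded PDCD1LG2 by 11.9-, 17.2- and 24.8-fold in the parental samples and by 2.43-, 3.04- and 3.15-fold in the adapted samples. The pair lies side by side on chromosome 9 (GENCODE v29, GRCh38), CD274 at chr9:5450503-5470566 and PDCD1LG2 at chr9:5510570-5571254, both on the plus strand, with 40004 bases and no protein-coding gene between them.

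HHLA2 (B7-H7), a B7 ligand that stimulates through TMIGD2 and inhibits through KIR3DL3, was the highest of the 10 genes in parental cells. Its FPKM was 74.5, 74.7 and 72.8 in parental samples and 38.9, 27.5 and 27.7 in adapted samples. No adapted sample reached the parental range, and here adapted sample 1 was the highest of its group. The mean was 74.0 ± 1.02 FPKM in parental and 31.4 ± 6.54 FPKM in adapted cells, 2.36-fold lower in the latter (log2 difference -1.23, SE 0.13).

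CD276 (B7-H3), a ligand with a debated receptor that is widely expressed in carcinomas (chr15:73683966-73714518, plus strand), was nearly level. It was at 26.2, 26.8 and 25.9 FPKM in parental and 29.4, 29.9 and 30.0 FPKM in adapted samples. Adapted samples were all higher, but the means of 26.3 ± 0.44 and 29.8 ± 0.282 FPKM differed only by a ratio of 1.13 (log2 difference 0.17, SE 0.05). Its limma call, a description here and no test, was lost when any 1 parental sample was left out. The log2 differences were then 0.17, 0.19 and 0.16. ICOSLG, the ligand of the co-stimulatory receptor ICOS (chr21:44217014-44240966, minus strand), was at 4.27, 3.80 and 3.99 FPKM in parental and 2.77, 3.74 and 4.37 FPKM in adapted samples. The groups overlapped, with an adapted sample at each end, and the log2 difference was -0.13 (95% interval -0.44 to 0.18). Without adapted sample 1 that difference was 0.0079.

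**Figure D2:**
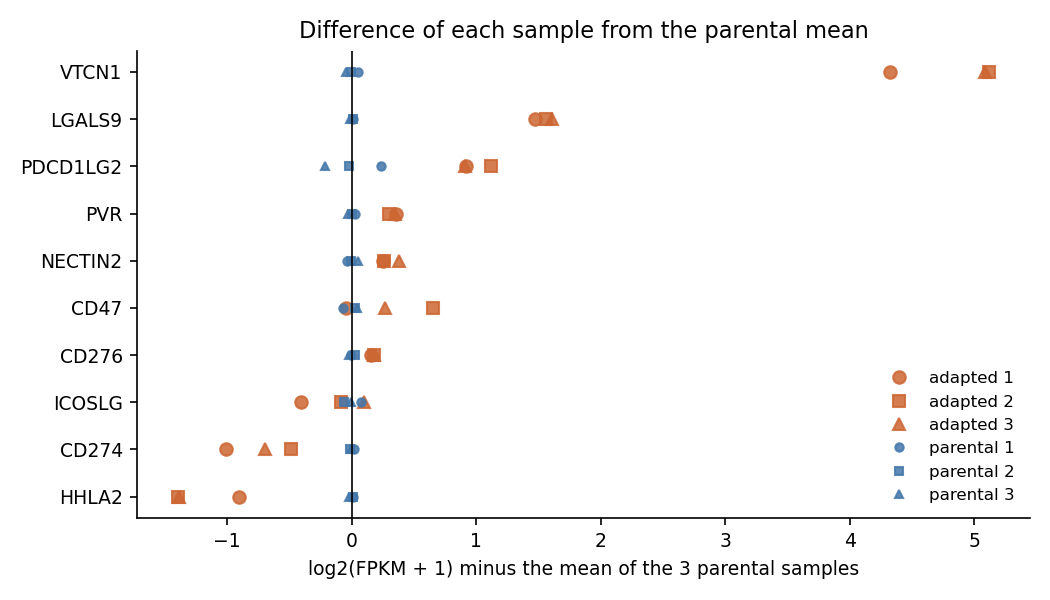
Each sample's log2(FPKM + 1) minus the mean of the 3 parental samples, for the 10 ligand genes. The points for VTCN1 average 4.84, those for LGALS9 1.55 and those for HHLA2 -1.23, and adapted samples lie on both sides of 0 for ICOSLG.

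The make-up of the 6 B7 transcripts followed here turned over, with VSIR and NCR3LG1 left out of their sum. VTCN1 was 1.91, 1.80 and 1.77% of the summed FPKM of the 6 B7 genes in parental samples and 44.3, 60.3 and 60.0% in adapted samples. HHLA2 went the other way, from 61.9, 62.2 and 62.1% to 27.5, 15.1 and 15.6%. In the parental samples HHLA2 exceeded VTCN1 by 32.5-, 34.5- and 35.0-fold, and in the adapted samples VTCN1 exceeded HHLA2 by 1.61-, 3.99- and 3.86-fold. CD274 made up 10.1, 9.89 and 10.2% of the parental and 3.84, 4.54 and 3.93% of the adapted sum. The share of CD276 was 21.7, 22.3 and 22.1% in parental samples and 20.8, 16.4 and 16.8% in adapted samples, lower there although its own level was not. The sum itself was 117.3 to 120.4 FPKM in parental samples and 141.5 to 181.7 FPKM in adapted samples. This higher sum came from VTCN1, the gene whose rise chose the set. Without VTCN1 the summed level of the other B7 genes followed was lower in every adapted sample than in any parental sample.

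**Figure D3:**
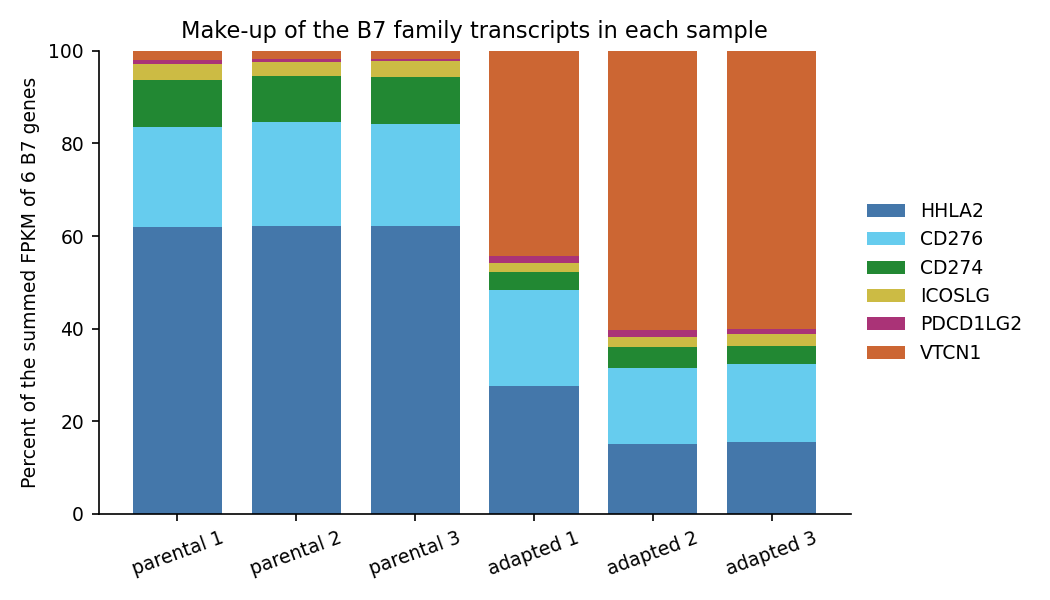
Percent of the summed FPKM of VTCN1, CD274, PDCD1LG2, CD276, ICOSLG and HHLA2 that each gene took, with 1 bar per sample. HHLA2 took 61.9 to 62.2% of the parental bars, and VTCN1 took 44.3 to 60.3% of the adapted bars.

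PVR (CD155) and NECTIN2 (CD112) are adhesion proteins that bind the activating receptor CD226 and the inhibitory receptor TIGIT. PVR was at 36.0, 35.3 and 34.5 FPKM in parental and 45.5, 43.7 and 45.0 FPKM in adapted samples. All adapted samples were higher, with means of 35.3 ± 0.765 and 44.8 ± 0.918 FPKM, a ratio of 1.27 (log2 difference 0.34, SE 0.05). NECTIN2 was at 15.8, 16.1 and 16.8 FPKM in parental and 19.4, 19.6 and 21.4 FPKM in adapted samples. It was also higher in every adapted sample, with means of 16.2 ± 0.511 and 20.1 ± 1.10 FPKM and a ratio of 1.24 (log2 difference 0.30, SE 0.06). Their proportion stayed near level, since PVR made up 69.6, 68.7 and 67.3% of the sum of both in parental samples and 70.1, 69.1 and 67.8% in adapted samples. Both lie on chromosome 19, PVR at chr19:44643798-44663583 and NECTIN2 at chr19:44846175-44889228 on the plus strand, 182.6 kb apart with 4 protein-coding genes between them. CEACAM19 overlaps PVR on the same strand and rose by 0.78 on the log2 scale (adjusted p = 2.65e-04), and how reads in the overlap were assigned was not stated.

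CD47, the signal that inhibits phagocytosis through SIRPA on macrophages, was abundant in both groups. It was at 57.9, 61.8 and 62.6 FPKM in parental and 58.7, 96.2 and 73.5 FPKM in adapted samples. Adapted sample 1 fell within the parental range and the other adapted samples lay above it. The log2 difference was 0.29 with a 95% interval of -0.087 to 0.67, which holds values of both signs. The log2 difference was 0.46 without adapted sample 1 and 0.11 without adapted sample 2. LGALS9, a secreted galectin that binds TIM-3 and lies at chr17:27629798-27649560 on the plus strand, was near the bottom of the scale in parental cells. It was at 0.495, 0.497 and 0.472 FPKM there and at 3.13, 3.40 and 3.54 FPKM in adapted samples. The groups lay well apart, and the means of 0.488 ± 0.0141 and 3.36 ± 0.209 FPKM gave a ratio of 6.88 and a log2 difference of 1.55 (SE 0.08). LGALS9 has the near-identical copies LGALS9B and LGALS9C, whose mean FPKM was 0.332 and 0.328 in parental and 0.0204 and 0.127 in adapted cells, so its value is uncertain. Summed over all 3 copies, the FPKM was 1.20, 1.10 and 1.14 in parental and 3.34, 3.47 and 3.70 in adapted samples, a ratio of 3.05.

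Ordered by FPKM, parental cells had HHLA2 first, followed by CD47, PVR, CD276, NECTIN2, CD274, ICOSLG, VTCN1, PDCD1LG2 and LGALS9. Only the last pair had overlapping sample ranges. In adapted cells VTCN1 was first by its mean, followed by CD47, PVR, HHLA2, CD276, NECTIN2, CD274, ICOSLG, LGALS9 and PDCD1LG2. There the ranges overlapped for VTCN1 and CD47, for HHLA2 and CD276, and for ICOSLG and LGALS9. Summed over the 10 genes, the level was 230.5 to 233.7 FPKM in parental and 268.2 to 344.6 FPKM in adapted samples. Without VTCN1 the ranges of these sums overlap between the groups.

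**Figure D4:**
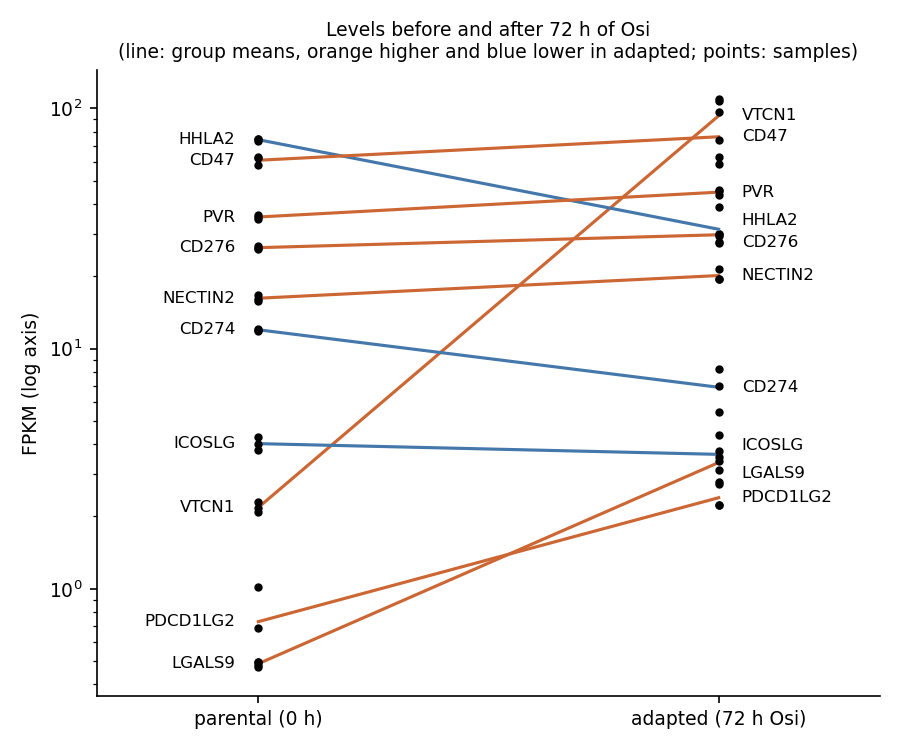
FPKM of the 10 ligand genes on a log axis in parental and adapted cells, with points for samples and lines joining the group means (orange higher, blue lower in adapted cells). VTCN1 climbed from the 8th to the 1st place and HHLA2 dropped from the 1st to the 4th.

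With limma over the 12656 rows tested and a Benjamini-Hochberg adjusted p under 0.05, 56.9% of rows passed in either direction, 30.7% higher and 26.2% lower in adapted cells. Among the 10 ligands VTCN1, PDCD1LG2, CD276, PVR, NECTIN2 and LGALS9 passed as higher, CD274 and HHLA2 as lower, and ICOSLG and CD47 did not pass. The groups did not overlap in 66.3% of all rows tested and in 8 of the 10 ligands, 6 above and 2 below. These calls rest on the contrast that chose the set, so they are a description and no test of the ligands. PDCD1LG2 and LGALS9 reached the level needed for testing only through the adapted samples. The median log2 difference was 0.29 over the ligands and 0.028 over all rows tested.

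The adapted samples spread more than the parental ones in 7 of the 10 ligands, and in 79.9% of all rows tested. The coefficient of variation of FPKM was 1.06% in parental and 20.5% in adapted samples for CD274, 1.37% and 20.8% for HHLA2, and 5.03% and 28.3% for VTCN1. PVR kept to 2.17% and 2.05%. Adapted sample 1 was the lowest of its group in 7 ligands, against 39.2% of all rows tested, and the highest in HHLA2 and PVR.

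The partners of these ligands were read from 8 lists of 93 genes. The lists were chosen with earlier results of these data known, so their counts and p-values are descriptive. Of the 93 genes 64 could be tested. Of these 25 rose and 14 fell, 60.9% in all, against 56.9% of all rows, and their median log2 difference was 0.119. The count of 14 fell to 9 without parental sample 1 and to 8 without parental sample 2. Of 13 other B7, butyrophilin and nectin genes 10 were tested, and 6 rose and 1 fell. VSIR, which encodes the inhibitory ligand VISTA, rose by 1.31 on the log2 scale (1.63 ± 0.07 to 2.94 ± 0.22, adjusted p = 1.16e-04), and its FPKM was 1.96 to 2.26 in parental and 5.45 to 7.65 in adapted samples. NCR3LG1 (B7-H6), a ligand of the natural killer receptor NKp30, rose by 0.97 (0.67 ± 0.07 to 1.64 ± 0.10, adjusted p = 1.53e-04). NCR3LG1 reached the level needed for testing only through the adapted samples. NECTIN4, the target of an antibody-drug conjugate, fell by 0.72 (adjusted p = 0.00459).

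The receptors of the ligands belong mainly to immune cells. Of 12 receptor genes 6 were listed at 0 in all samples and 9 stayed under 0.1 FPKM. The one that could be tested was SIRPA, the CD47 receptor, at 9.40, 9.43 and 9.15 FPKM in parental and 8.16, 1.76 and 2.70 FPKM in adapted samples. SIRPA fell by 1.18 on the log2 scale (adjusted p = 0.0346). Adapted sample 1 stood close to the parental samples. The call was lost when any 1 sample other than adapted sample 1 was left out, with log2 differences from -1.20 to -0.83.

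The ligands of other lymphocyte receptors were a mixed group. Of 8 TNF family co-stimulatory ligands and partners 4 were tested, 3 rose and none fell (median log2 difference 0.70). TNFSF15 rose by 0.99 (adjusted p = 0.00139) and TNFSF9, the 4-1BB ligand, by 0.85 (adjusted p = 0.00129). Of 8 ligands of NKG2D, an activating receptor of natural killer cells, 5 were tested, and 3 rose and 1 fell (median 0.69). ULBP3 rose by 1.18 (adjusted p = 5.38e-04), with an FPKM of 1.12 to 1.74 in parental and 3.78 to 5.70 in adapted samples. MICA rose by 0.80 (adjusted p = 1.78e-04) and ULBP2 fell by 0.65 (adjusted p = 0.00433). Parental and adapted samples did not overlap in 66.3% of all rows tested, and this share was not computed for rows too low to test. Of the 7 genes of both lists that were too low to test, 4 were below the parental range in every adapted sample. These were TNFSF14 (0.393 to 0.481 FPKM in parental and 0.0228 to 0.0578 FPKM in adapted samples), TNFSF18 (0.473 to 0.641 and 0.0279 to 0.0853), CD40 (0.240 to 0.298 and 0.0647 to 0.161) and RAET1E (0.523 to 0.995 and 0.0649 to 0.174), named after their values were seen.

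The interferon-gamma, JAK-STAT and IRF list, which holds drivers of CD274 and also inhibitors of JAK signalling, had 14 genes. All were tested, and 1 rose and 6 fell (median log2 difference -0.12). Those that fell were IFNGR1, IFNGR2 and STAT3, and the inhibitors SOCS1, SOCS3 and PTPN2. STAT3 was at the threshold, with a log2 difference of -0.16 (adjusted p = 0.0490), and that of IFNGR1 was -0.23 (adjusted p = 0.0198). STAT2 was the one that rose, by 1.44 (adjusted p = 4.32e-04), from 25.0 to 26.9 FPKM in parental to 52.2 to 86.8 FPKM in adapted samples. SOCS1, a feedback inhibitor of JAK signalling, fell by 1.29 (adjusted p = 7.39e-05). IFNGR2, a chain of the interferon-gamma receptor, fell by 1.15 (adjusted p = 3.15e-05), from 41.2 to 45.4 FPKM to 17.4 to 20.5 FPKM. IRF1 and JAK2, singled out after their values were seen, did not pass, with log2 differences of -0.021 (adjusted p = 0.838) and -0.15 (adjusted p = 0.282).

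Of 20 genes for turnover, trafficking and shedding of B7 proteins 7 rose and 2 fell (median log2 difference 0.11). USP22, a deubiquitinase reported to act on PD-L1, rose by 0.92 (adjusted p = 5.3e-05), and HIP1R, which carries PD-L1 to the lysosome, rose by 0.77 (adjusted p = 3.9e-05). STT3B, a subunit of the oligosaccharyltransferase that glycosylates new proteins, fell by 0.30 (adjusted p = 0.0083). ADAM17, a sheddase, fell by 0.24 (adjusted p = 0.0267), a call lost without any 1 parental sample or adapted sample 2, with log2 differences from -0.26 to -0.22. CMTM6, which keeps PD-L1 on the surface, was also singled out after its value was seen and did not pass, with a log2 difference of -0.063 (adjusted p = 0.607).

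Among 8 CD47 partners and other phagocytosis signals all 6 tested genes passed, 4 up and 2 down (median log2 difference 0.64). THBS1, a secreted matrix protein that binds CD47, rose by 4.27 (2.14 ± 0.04 to 6.40 ± 0.13, adjusted p = 2.18e-07), from 3.32 to 3.53 FPKM to 75.3 to 90.3 FPKM. CD24, a ligand of the macrophage receptor SIGLEC10, rose by 1.95 (adjusted p = 4.34e-05). CALR, which signals phagocytosis when exposed on the surface, fell by 0.44 (adjusted p = 0.00316). QPCTL, the enzyme that modifies CD47 for SIRPA binding, fell by 0.33 (adjusted p = 0.0257), a call lost without parental sample 2 or 3 or adapted sample 2 or 3, with log2 differences from -0.33 to -0.25. Of 10 other galectins 4 were tested (median 0.13). LGALS2 fell by 2.07 (adjusted p = 5.75e-04), from 8.28 to 8.92 FPKM to 0.679 to 2.70 FPKM. LGALS3 rose by 0.48 (adjusted p = 0.0393), a call lost when any 1 sample other than adapted sample 1 was left out, with log2 differences from 0.34 to 0.48.

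**Figure D5:**
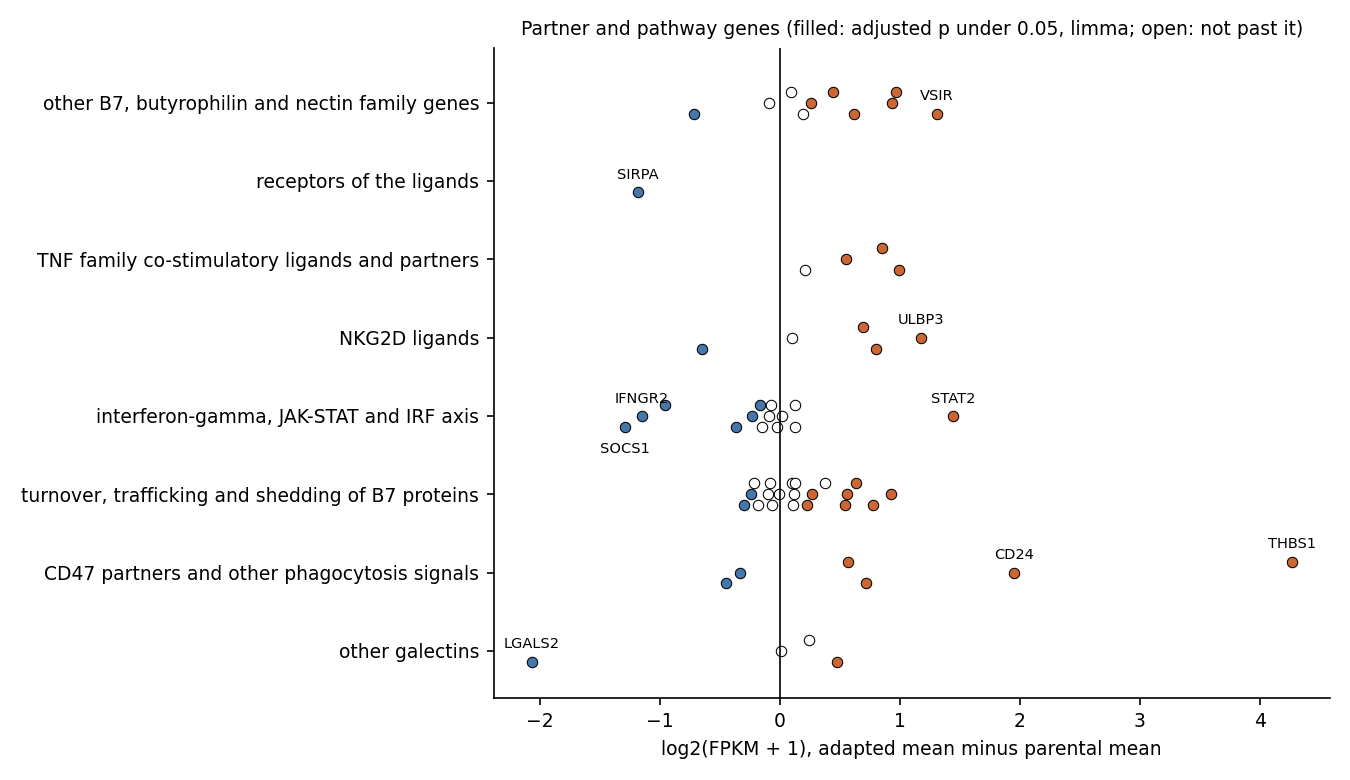
Difference of the group means of log2(FPKM + 1), adapted minus parental, for the 64 tested partner and pathway genes by list, filled where the adjusted p was under 0.05. THBS1 at 4.27 and LGALS2 at -2.07 lie at the ends, and the interferon-gamma, JAK-STAT and IRF list has 1 gene that rose and 6 that fell.

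The nearest protein-coding genes with expression values on either side of the ligands were 17 genes that are not in the set. Of these 11 were tested, 4 rose and 3 fell, where 56.9% of all rows tested passed in either direction. VTCN1, at chr1:117143587-117210960 on the minus strand, lies between TRIM45, 21.0 kb away, and MAN1A2, 156.5 kb away. Both rose, TRIM45 by 0.60 (adjusted p = 0.00126) and MAN1A2 by 0.49 (adjusted p = 0.0015), far less than VTCN1. PLGRKT, 12.6 kb from CD274, fell by 0.87 (adjusted p = 7.23e-04), while RIC1, 57.8 kb beyond PDCD1LG2, had a log2 difference of -0.0014 (adjusted p = 0.99). NECTIN2 lies between TOMM40, 1.34 kb away, with a log2 difference of -0.21 (adjusted p = 0.16), and BCAM, 24.8 kb away, which rose by 1.47 (adjusted p = 2.14e-05). GATD3A, 6.90 kb from ICOSLG, had a log2 difference of 0.13 (adjusted p = 0.123), and NPTN, 49.8 kb from CD276, rose by 0.27 (adjusted p = 0.00669). KSR1, 3.36 kb from LGALS9, fell by 1.01 (adjusted p = 7.22e-05), and BBX next to CD47 fell by 0.65 (adjusted p = 0.00563). HHLA2, at chr3:108296490-108378285 on the plus strand, and CD47, at chr3:108043094-108091862 on the minus strand, lie 204.6 kb apart. IFT57 between them had a log2 difference of 0.056 (adjusted p = 0.77).

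The rows whose 6 log2 values lay closest to those of VTCN1, by the root mean square difference, were THBS1 at 0.45, PMEPA1 at 0.75 and ALPP at 0.83. THBS1 and PMEPA1 are known targets of TGF-beta signalling, and ALPP is placental alkaline phosphatase. PMEPA1 was at 3.44 to 3.61 FPKM in parental and 36.1 to 57.9 FPKM in adapted samples, and ALPP at 1.59 to 2.15 and 35.9 to 53.2 FPKM. In PMEPA1, as in VTCN1, adapted sample 1 was the lowest of its group, whereas in THBS1 adapted sample 3 was the lowest and in ALPP adapted samples 1 and 3 lay close together at 36.6 and 35.9 FPKM.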

How the data were processed

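H1975 RNA was sequenced from 3 parental (0 h Osi) and 3 adapted (72 h) samples. The authors deposited 1 table of log2 values, log2(x + 1) with x taken as FPKM from the size of the values. The submitters' notes name Bowtie2 2.1.0, STAR, edgeR and hg38, with roles and settings not given in the sources used here. The labels describe an RNase R digestion, the study's methods total RNA. Low values showed no read steps, so depth and counts are unknown and no count test could be run. Columns were matched to samples by their titles.

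Rows with a mean log2 value of at least 1 were fitted with limma 3.58.1 (R 4.3.3; lmFit, eBayes with trend) for adapted against parental, without a replicate block, since same-numbered samples did not deviate together (correlations of -0.0509, -0.0309 and -0.0203), and p-values were adjusted by Benjamini-Hochberg over 12656 rows. With 3 against 3, an exact permutation test of 1 gene cannot go below p = 0.1. On simulated data of the same 12656 rows, 96.5% of 200 genes changed by a log2 value of 1 were called, and 6.76% of calls were unchanged genes. That simulation left all other rows unchanged and gave both groups the same spread. In the data 56.9% of rows passed and the adapted samples spread more in 79.9% of rows. These rates therefore show that the fit runs as intended and do not give the accuracy of the calls made here.

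The ligands and lists were chosen with earlier results of these data known. Named in each list were up to 2 genes that rose most and 2 that fell most past the threshold without overlap between groups, and the 3 rows most like VTCN1 by the root mean square difference. Positions come from GENCODE v29 and upstream sequences from RefSeq (GRCh38.p14). In 147 rows, none of them a ligand or list gene, values off the table's grid were seen (122 in adapted and 25 in parental columns). Alternatives covered filters, pseudocount, scaling, the block, a size limit and each sample left out.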

Additional observations from a re-analysis of the deposited data

How the results depend on the processing

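Across 20 settings, 180 of 188 values of the ligands moved by less than the spread between replicates, and no ligand that passed the threshold changed sign. Many of these values are the same by construction. The filters, the eBayes options, the block and the left-out or corrected rows cannot change a ligand's log2 difference. Only the pseudocount, the normalization, the left-out samples and the summed LGALS9 copies could move it. ICOSLG, which did not pass, was at 0.0079 without adapted sample 1 against -0.13 with it. With a pseudocount of 0.1 the log2 differences were 5.31 for VTCN1, 1.63 for PDCD1LG2 and 2.55 for LGALS9. Summing LGALS9 with its copies, an alternative chosen after seeing the data, gave 1.07. Of 408 values of the other named genes, 383 kept their call and 25 lost it, all in SIRPA, ADAM17, QPCTL and LGALS3. A stricter filter (mean log2 of at least 3) left PDCD1LG2, ICOSLG and LGALS9 untested and called 4532 rows (2357 higher, 2175 lower) in place of 7202 (3889 and 3313), and 25 pathway genes (8 lower) in place of 39, since it tests fewer rows. A size limit of 1 on the log2 scale left 1328 rows (672 higher, 656 lower), 3 ligands (2 higher, 1 lower) and 9 pathway genes (5 higher, 4 lower). Leaving out 1 sample at a time gave 8 to 18 pathway genes called lower. With the replicate block 6761 rows and 7 ligands were called, CD276 losing its call (log2 difference 0.17), as did ADAM17 (adjusted p = 0.0573) and QPCTL (adjusted p = 0.0559). DESeq2 and edgeR were not run, since the table holds no counts, and unknown depth limits the low genes PDCD1LG2 and LGALS9.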
